A study of Mus musculus with 8 samples.

Results

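The genes described here encode the constitutive proteasome: the core subunits and regulatory subunits named Psma, Psmb, Psmc and Psmd with a number, and the activator caps Psme1, Psme2, Psme3 and Psme4. The interferon-inducible Psmb8, Psmb9 and Psmb10 were set aside by name. Of 34586 gene symbols in the deposited table, 40 had such a name and 38 of these had a mean level of at least 1 FPKM (fragments per kilobase of transcript, scaled to the size of the library) over the 8 libraries. The other 2 were Psma8, a testis form of an alpha subunit, at a mean of 0.593 FPKM, and Psmb11, the thymus-specific beta subunit, at 0.0768 FPKM.

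The proteasome is the protease that breaks down proteins tagged with ubiquitin. Its core is a barrel of stacked alpha and beta rings; the alpha rings gate the entrance and Psmb5, Psmb6 and Psmb7 carry the cutting sites. A regulatory particle, made of an ATPase ring (Psmc) and a base and lid (Psmd), receives ubiquitin-tagged proteins, unfolds them and feeds them in. Activator caps open the core without ubiquitin, and interferon gamma is known to raise Psme1, Psme2 and the 3 immunosubunits, which take the place of the constitutive cutting subunits and favor peptides for antigen presentation.

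RNA was sequenced from cecal gastrointestinal stromal tumors (GIST) explanted from mice, with 4 libraries labelled vehicle and 4 labelled tamoxifen. Both groups had the strain label C57BL/6 and the same genotype: Kit V558Delta/+, an activating Kit allele that drives the tumor, Etv1 flox/flox, and Rosa26 CreERT2/CreERT2, a tamoxifen-activated Cre recombinase expressed from a locus active in most cell types. The study compared tumors with and without loss of Etv1, a transcription factor of the GIST lineage. No dose, time or mouse age is stated in the labels, and no group with tamoxifen but without the floxed allele was analysed, so the drug and the deletion cannot be told apart. Nothing in the labels ties each tumor to its own mouse, so the p-values measure the spread between these libraries.

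Etv1 itself was at 34.6, 51.1, 40.4 and 38.6 FPKM in vehicle replicates 1 to 4 and at 34.9, 19.7, 31.4 and 17.4 FPKM in tamoxifen replicates 1 to 4. The groups overlapped through tamoxifen replicate 1, and the fall of 0.70 on the log2 scale (SE 0.24) did not pass the test (limma, adjusted p = 0.13). These are levels per gene, which do not measure how far the floxed allele was deleted in any library. Markers of the GIST lineage were present in all 8 libraries, and of the 6 on the list (Kit, Ano1, Gpr20, Etv1, Prkcq and Cd34) 1 rose and none fell. Kit was at 760 ± 161 FPKM in vehicle and 447 ± 82.1 FPKM in tamoxifen tumors (SD, n = 4 each; limma, adjusted p = 0.0674), and Ano1 at 522 ± 83.4 and 433 ± 72.1 FPKM (SD, n = 4 each). Gpr20 had a log2 fold change of -0.78 (limma, adjusted p = 0.0785) and Prkcq of 0.02. Cd34 rose by 0.73 (limma, adjusted p = 0.024; up to 0.0724 with 1 library left out). In whole tumors, fewer cells of a type and less RNA per cell cannot be told apart. The table gives no read counts, so the depth behind these values is unknown.

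Of the 38 genes, none rose and 1 fell after tamoxifen, Psme1, which encodes a subunit of the activator cap induced by interferon gamma. This was tested with limma on log2(FPKM + 1), with p-values adjusted over all 15023 genes tested and a threshold of 0.05. Over all genes tested, 5.45% passed. The groups did not overlap for 4 of the 38 genes: Psme1, Psme2 and the lid subunit Psmd7 were lower and Psme4 was higher in every tamoxifen library. Over all genes tested the groups did not overlap for 15.1%, so the 10.5% of proteasome genes was no excess.

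The 38 genes were abundant. Their mean levels ran from 10.6 FPKM (Psmd9, an assembly chaperone of the regulatory particle) to 370 FPKM (Psmb4, a non-catalytic beta subunit), with a median of 73.8 FPKM, and 34 of them lay above the 75th percentile of all genes tested. Their changes were small: the median log2 fold change was -0.02, beside 0.01 over all genes tested, and 18 were higher and 20 lower. The median absolute log2 fold change was 0.10, beside 0.23 over all genes tested and 0.21 over the 8397 genes at 10 FPKM or more. It was under 0.3 for 34 of the 38 genes (89.5%), beside 60% of all genes tested and 63.3% of those at 10 FPKM or more. For 32 of the 38 genes the 95% interval of the change lay within 1.5-fold in either direction, with standard errors between 0.10 and 0.28. These are descriptions of the group, with no test of it against other genes.

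**Figure D1:**
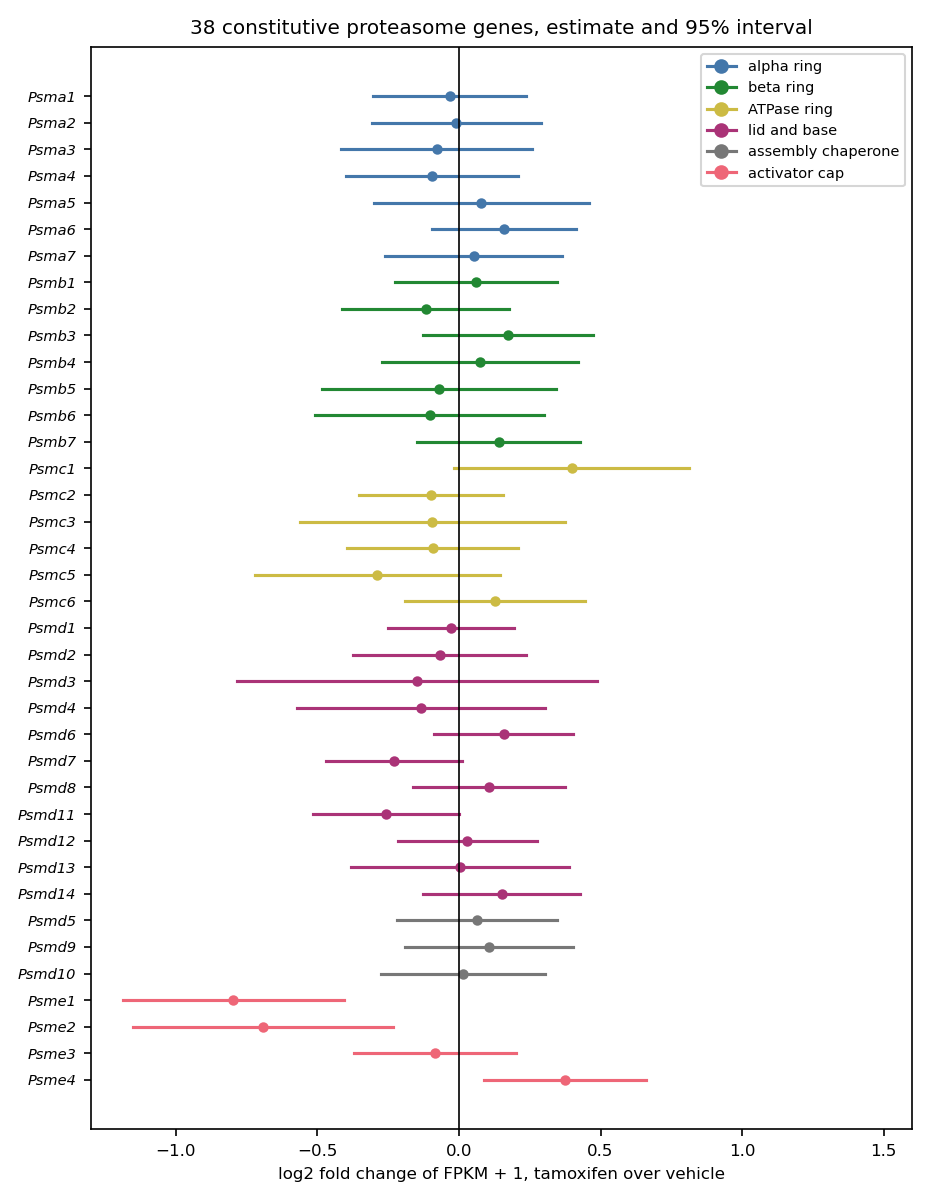
Log2 fold change of FPKM + 1 (tamoxifen over vehicle, horizontal axis) for the 38 genes, each with its limma estimate (dot) and 95% interval (line), colored by the part of the proteasome. Most intervals span 0. Psme1 and Psme2 lie to the left at -0.80 and -0.69. Psmc1 and Psme4 lie furthest to the right at 0.40 and 0.37, and the interval of Psmc1 spans 0.

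Psme1 and Psme2 encode the alpha and beta subunits of one ring-shaped cap and lie beside each other on chromosome 14 (mm9, the build of the deposited table; Psme1 locus 56196960 to 56204139, Psme2 locus 56206278 to 56209950). Promoter windows from RefSeq (GRCm38.p6, from 250 bases before to 50 after a start) were searched for 3 motifs on both strands: GAAANNGAA, a core of the interferon response element; TTCNNNGAA, the gamma activated site of interferon-induced promoters; and TGACNNNGC, the core of the antioxidant response element, through which NFE2L1 is known to raise proteasome genes. The 150 bases before the start of each cap gene are shown because both genes were lower in every tamoxifen library; neither stretch held any of the 3 motifs, so all letters are in lower case. For Psme2, which has 2 listed starts, the first was used.
Psme1, plus strand, chr14:55578344-55578493: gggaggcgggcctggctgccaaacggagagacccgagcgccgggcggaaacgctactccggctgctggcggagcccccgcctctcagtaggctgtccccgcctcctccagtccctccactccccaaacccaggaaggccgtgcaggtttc
Psme2, minus strand, chr14:55591102-55591251: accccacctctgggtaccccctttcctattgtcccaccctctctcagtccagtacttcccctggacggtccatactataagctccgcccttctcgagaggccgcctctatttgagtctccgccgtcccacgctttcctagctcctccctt

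Just after its start Psme1 held a match to GAAANNGAA on the opposite strand. TGACNNNGC matched in the windows of the cutting subunits Psmb5 and Psmb6 and of Psme4, the cap gene that was higher in every tamoxifen library but did not pass the test. Each site is shown in 30 bases of the gene's own strand, with the match in capitals.
Psme1, chr14:55578494-55578523: gagctgtgctTTCGCTTTCccttcccgctg
Psmb5, chr14:54618023-54618052: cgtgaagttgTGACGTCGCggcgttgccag
Psmb6, chr11:70525338-70525367: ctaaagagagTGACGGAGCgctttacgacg
Psme4, chr11:30771758-30771787: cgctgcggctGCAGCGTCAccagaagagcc
RefSeq listed 35 windows for 32 of the 38 genes. GAAANNGAA was found in 6 of the 35 (17.1%; 8.56% of all 32851 windows), TGACNNNGC in 6 (17.1%; 12.4% of all windows) and TTCNNNGAA in 1, that of Psmd2 (2.86%; 8.3% of all windows). No match overlapped another, and the 5 other genes with GAAANNGAA (Psmb3, Psmb4, Psmc2, Psmd4 and Psmd9) did not pass the test of expression. TGACNNNGC was also found for Psmc6, Psmd12 and Psmd9, and no gene with TGACNNNGC passed that test. A match is a run of letters and not a measured binding site.

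Psme1 was at 369, 358, 316 and 357 FPKM in vehicle replicates 1 to 4 and at 168, 165, 221 and 263 FPKM in tamoxifen replicates 1 to 4. Every tamoxifen library was below every vehicle library, with replicates 1 and 2 the lowest. The mean was 350 ± 23.6 FPKM (SD, n = 4) in vehicle and 204 ± 47.0 FPKM (SD, n = 4) in tamoxifen tumors, a log2 fold change of -0.80 (SE 0.17; limma, adjusted p = 0.0363). The call was lost without a filter on low values (adjusted p = 0.0558), with libraries scaled to the same total (0.239), with the replicate number as a block (0.084), and when any 1 vehicle library or tamoxifen replicate 1 or 2 was left out (adjusted p between 0.0727 and 0.0971, log2 fold change between -0.85 and -0.70). The table gives 1 locus for Psme1 and Fam158a, which was at 9.78 ± 2.40 FPKM (SD, n = 4) in vehicle and 13.0 ± 1.97 FPKM (SD, n = 4) in tamoxifen tumors.

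Psme2 was at 235, 248, 232 and 230 FPKM in vehicle replicates 1 to 4 and at 126, 111, 149 and 218 FPKM in tamoxifen replicates 1 to 4. The groups did not overlap, but tamoxifen replicate 4 lay close to the vehicle libraries. The log2 fold change was -0.69 (SE 0.20; limma, adjusted p = 0.0843), which missed the threshold. It passed without tamoxifen replicate 4 (log2 fold change -0.88, adjusted p = 0.0186) and with array quality weights, which count variable libraries less (adjusted p = 0.0436). A pseudogene copy on chromosome 11, Psme2b-ps, was listed at 2.5 to 6.17 FPKM, so some reads of Psme2 may be split between them.

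Psme3 encodes a cap found mainly in the nucleus. It was at 34.9, 37.0, 35.9 and 40.5 FPKM in vehicle and at 30.1, 35.3, 33.0 and 42.3 FPKM in tamoxifen tumors. The groups overlapped throughout, with a log2 fold change of -0.08 (95% interval -0.37 to 0.20; limma, adjusted p = 0.733). Psme4, a large nuclear activator, was at 19.8, 25.8, 20.6 and 21.5 FPKM in vehicle and at 33.6, 28.1, 26.1 and 27.0 FPKM in tamoxifen tumors. Every tamoxifen library was above every vehicle library, but the log2 fold change of 0.37 (SE 0.13) did not pass the test (limma, adjusted p = 0.123).

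**Figure D2:**
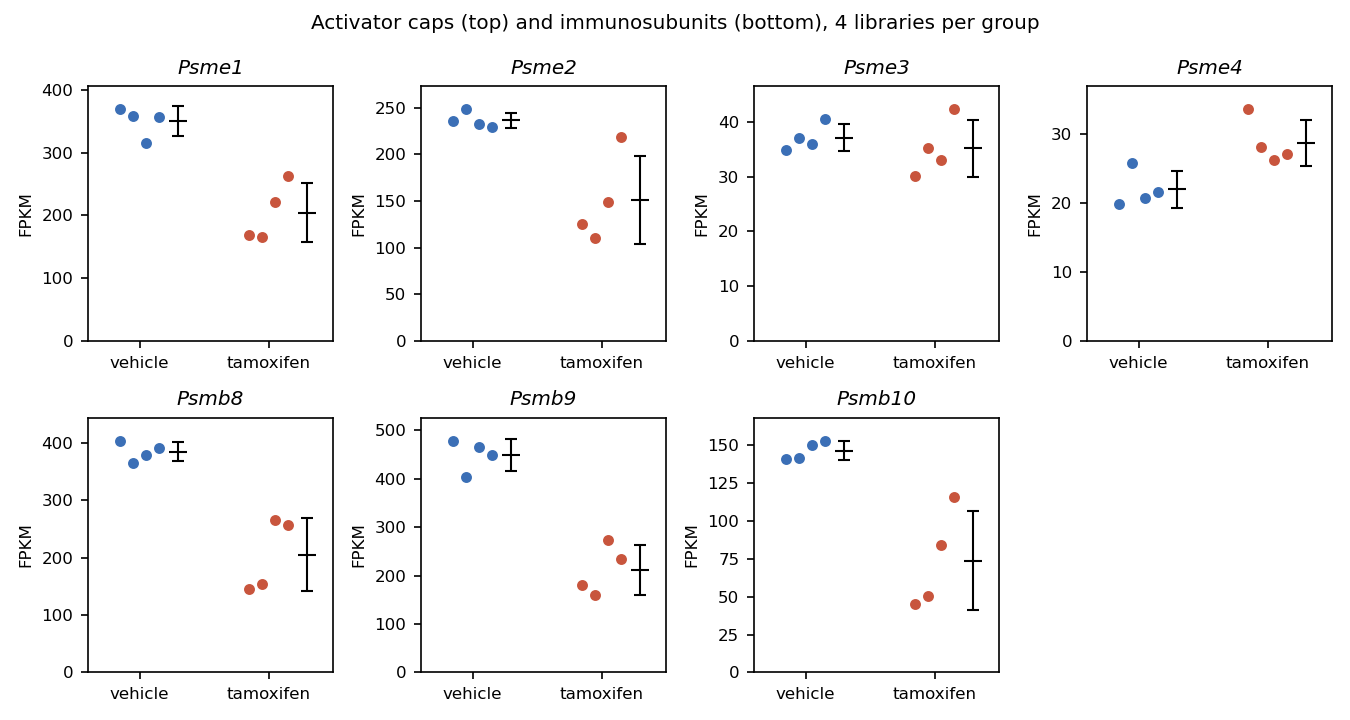
FPKM (vertical axis, from 0) of the 4 activator caps (top row) and the 3 immunosubunits (bottom row) in each vehicle and tamoxifen library, in order of replicate number. Dots are libraries and the bars give the mean ± SD of 4; Psme3 overlaps between groups, and the other 6 genes do not.

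The library identifiers fall into 2 ranges whose meaning the labels do not state, and both groups appear in each. In the lower range (3 vehicle, 2 tamoxifen libraries) the mean of Psme1 was 348 FPKM in vehicle and 167 FPKM in tamoxifen tumors, a ratio of 0.479. In the higher range (1 vehicle, 2 tamoxifen libraries) the means were 357 and 242 FPKM, a ratio of 0.679. For Psme2 the ratios were 0.495 and 0.80, and for Psme4 1.40 and 1.23. The groups of these 3 genes did not overlap over all libraries, so they could not overlap within a range, and that adds nothing. With the range as a covariate the adjusted p of Psme1 was 0.0205 (limma).

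The immunosubunits were read beside their constitutive counterparts. Psmb8 fell from 385 ± 16.6 to 206 ± 64.4 FPKM (SD, n = 4 each; log2 fold change -0.96, limma adjusted p = 0.044) and Psmb9, summed over 2 rows, from 449 ± 32.8 to 212 ± 51.6 FPKM (SD, n = 4 each; -1.11, limma adjusted p = 0.0158). Psmb10 was at 147 ± 6.13 FPKM in vehicle and 73.9 ± 32.9 FPKM in tamoxifen tumors (SD, n = 4 each; -1.08, limma adjusted p = 0.0621). Leaving out 1 library ended the call of Psmb8 for 6 of the 8 libraries (all but tamoxifen replicates 3 and 4; adjusted p up to 0.112) and that of Psmb9 for vehicle replicates 3 and 4 (0.0543 and 0.0512). Psmb8 did not pass without a filter (0.0691), and neither gene passed with libraries scaled to the same total (0.196 and 0.114). With the replicate number as a block the adjusted p was 0.0791 for Psmb8 and 0.0472 for Psmb9. Psmb8 overlaps the peptide transporter gene Tap2 in the table, Psmb9 overlaps Tap1, and Psmb10 overlaps Lcat and Slc12a4, so their reads may not be cleanly separated.

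Psmb5 carries the chymotrypsin-like site and is replaced by Psmb8. It was at 49.4, 47.2, 38.3 and 47.9 FPKM in vehicle and at 38.03, 32.8, 51.9 and 54.3 FPKM in tamoxifen tumors, and the tamoxifen libraries lay on both sides of the vehicle range (log2 fold change -0.07, 95% interval -0.48 to 0.34; limma, adjusted p = 0.855). Psmb6, with the caspase-like site, is replaced by Psmb9. Its levels were 167, 142, 150 and 158 FPKM in vehicle and 119, 114, 186 and 166 FPKM in tamoxifen tumors (log2 fold change -0.10, 95% interval -0.51 to 0.30; limma, adjusted p = 0.769). As with Psmb5, tamoxifen replicates 1 and 2 were low and replicate 3 was above the vehicle libraries. Psmb7, with the trypsin-like site, is replaced by Psmb10 and was at 105, 124, 106 and 114 FPKM in vehicle and at 121, 105, 129 and 142 FPKM in tamoxifen tumors (log2 fold change 0.14, 95% interval -0.15 to 0.43; limma, adjusted p = 0.549). Its groups also overlapped.

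The ratio within a library sets each pair side by side. Psmb8 over Psmb5 was 8.17, 7.74, 9.88 and 8.19 in vehicle and 3.85, 4.69, 5.12 and 4.73 in tamoxifen tumors. Psmb9 over Psmb6 was 2.87, 2.84, 3.12 and 2.85 in vehicle and 1.52, 1.40, 1.47 and 1.41 in tamoxifen tumors. The second ratio varied little within each group although Psmb6 alone ranged from 114 to 186 FPKM. Psmb9 is listed in 2 rows with 1 locus, which were summed here, and the smaller row held 8.22% to 18.7% of the summed level. From the larger row alone, an alternative chosen after seeing the data, the ratio was 2.55 ± 0.19 in vehicle and 1.28 ± 0.0487 in tamoxifen tumors (SD, n = 4 each). Psmb10 over Psmb7 was 1.34, 1.14, 1.42 and 1.34 in vehicle and 0.375, 0.479, 0.649 and 0.816 in tamoxifen tumors, so the transcript of the immunosubunit was the higher of the pair in every vehicle library and the lower in every tamoxifen library.

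Psme1 over Psme3, a ratio of alternative caps, was 10.6, 9.68, 8.78 and 8.81 in vehicle and 5.6, 4.68, 6.70 and 6.23 in tamoxifen tumors. On the scale of log2(FPKM + 1), the differences of the 4 ratios between groups were -0.89 for Psmb8 over Psmb5, -1.01 for Psmb9 over Psmb6, -1.22 for Psmb10 over Psmb7 and -0.71 for Psme1 over Psme3. No ratio overlapped between groups. Each exact 2-sided permutation test over the 70 arrangements of the libraries gave p = 0.0286, the smallest p that 4 against 4 libraries can give, and 0.0286 after adjustment over the 4 ratios. Psmb8, Psmb9, Psmb10 and Psme1 were already lower in every tamoxifen library, while the genes they were divided by changed little. The ratio tests therefore largely restate those lower levels and are no separate support. As a share of the pair's FPKM, Psmb8 made up 89.4% ± 0.97 in vehicle and 82.0% ± 1.84 in tamoxifen tumors (SD, n = 4), Psmb9 74.5% ± 0.83 and 59.2% ± 0.958 (SD, n = 4; 71.8% ± 1.53 and 56.2% ± 0.945 from its larger row alone), and Psmb10 56.6% ± 2.28 and 36.0% ± 7.75 (SD, n = 4).

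**Figure D3:**
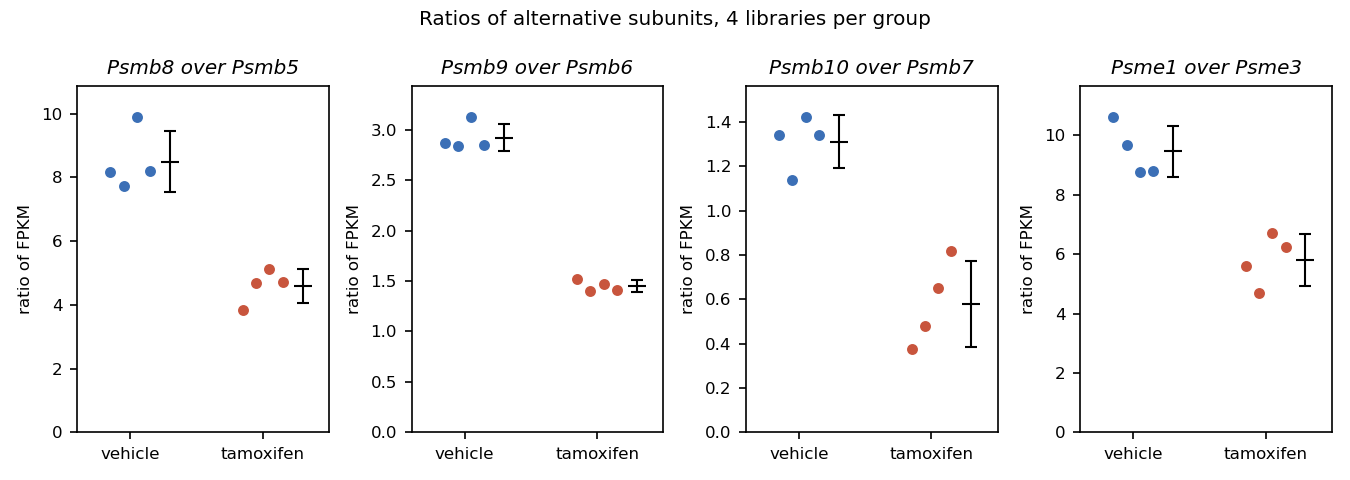
Ratio of FPKM within each library (vertical axes, from 0) for 3 immunosubunits over the constitutive subunits they replace and for Psme1 over Psme3. Dots are libraries and the bars give the mean ± SD of 4 per group; every tamoxifen ratio lies below every vehicle ratio, from 0.375 to 0.816 against 1.14 to 1.42 for Psmb10 over Psmb7.

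Other genes known to respond to interferon gamma were lower too (median log2 fold change -1.17 over a list of 8, beside 0.01 over all genes tested). Over all genes tested 5.45% passed in either direction, and of these 8 genes 6 fell. They included Cxcl9, a chemokine that attracts T cells, at 500 ± 115 FPKM in vehicle and 41.1 ± 5.77 FPKM in tamoxifen tumors (SD, n = 4 each; limma, adjusted p = 0.00018). Nlrc5, an activator of MHC class I genes, fell by 0.97 on the log2 scale (limma, adjusted p = 0.00952), and Tapbp, which loads peptides on MHC class I, by 1.17 (limma, adjusted p = 0.023). For Tapbp the call was lost without any 1 vehicle library or without tamoxifen replicate 2 (adjusted p between 0.0553 and 0.0708), and for Tapbp and Nlrc5 with the replicate block (0.0522 each). With libraries scaled to the same total, Nlrc5 and Tapbp did not pass (0.165 and 0.0952). Tap1, also among the 6, has the same locus as Psmb9, so it is not separate from that gene. It passed narrowly (limma, adjusted p = 0.0497, and up to 0.126 with 1 library left out).

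Markers of other cells moved between the groups as well. Of 6 T and NK cell markers, 4 fell, and the sum of the 6 was 160 to 234 FPKM in vehicle and 84.3 to 108 FPKM in tamoxifen libraries. Among those that fell, Cd3d and Cd8a did not keep the call in every fit with 1 library left out (limma, adjusted p up to 0.0612 and 0.0512). All 4 neutrophil markers rose, from a sum of 4.95 to 20.3 FPKM to a sum of 177 to 464 FPKM. Ly6g alone was at 97.9 to 170 FPKM in the tamoxifen libraries. Retnlg passed narrowly (limma, adjusted p = 0.0473, and up to 0.129 with 1 library left out). Of 6 epithelial markers 1 rose, Krt18 (limma, adjusted p = 0.0391, and up to 0.109 with 1 library left out). The epithelial sums were 416 to 676 FPKM in vehicle and 874 to 2051 FPKM in tamoxifen libraries. Of 5 macrophage markers none passed, with sums of 339 to 477 and 275 to 645 FPKM. Of 4 endothelial markers 2 rose, Pecam1 by 0.75 and Tek by 0.68 on the log2 scale (limma, adjusted p = 0.0335 and 0.0458; up to 0.102 and 0.131 with 1 library left out), and all 4 were higher, with sums of 26.7 to 38.4 and 42.3 to 61.6 FPKM. None passed of 4 B and plasma cell, 5 smooth muscle, 4 fibroblast, and 3 enteric neuron and glia markers. No marker of the T and NK cell, neutrophil, epithelial, macrophage and endothelial lists was at 0 in any library. Their part in the levels of Psme1, Psme2 and the immunosubunits was not tested.

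In the alpha ring none of 7 genes passed, 3 were higher and 4 lower, and the mean level of the ring was 115 ± 6.40 FPKM in vehicle and 117 ± 12.7 FPKM in tamoxifen tumors (SD, n = 4 each). The largest rise was in Psma6, at 146, 159, 134 and 146 FPKM in vehicle and 176, 146, 160 and 171 FPKM in tamoxifen tumors (log2 fold change 0.16; limma, adjusted p = 0.445). The largest decrease was in Psma4, at 130, 173, 152 and 164 FPKM in vehicle and 162, 125, 142 and 150 FPKM in tamoxifen tumors (-0.10; limma, adjusted p = 0.71). Both pairs of groups overlapped. Levels per length within the ring ran from 26.6 FPKM (Psma5) to 233 FPKM (Psma7), 8.76-fold, although each subunit is known to occur once in a ring.

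The beta ring had a similar spread, 8.30-fold, from 44.5 FPKM for Psmb3 to 370 FPKM for Psmb4, both non-catalytic. None of its 7 genes passed, with 4 higher and 3 lower, and the ring's mean level was 143 ± 5.91 FPKM in vehicle and 146 ± 23.6 FPKM in tamoxifen tumors (SD, n = 4 each). Psmb3 had the largest rise, at 45.7, 38.7, 41.5 and 40.8 FPKM in vehicle and 46.9, 37.8, 54.0 and 50.9 FPKM in tamoxifen tumors (log2 fold change 0.17; limma, adjusted p = 0.482). Psmb2, also non-catalytic, had the largest decrease, at 157, 156, 155 and 150 FPKM in vehicle and 153, 113, 153 and 155 FPKM in tamoxifen tumors (-0.12; limma, adjusted p = 0.632). For Psmb2 only tamoxifen replicate 2 lay apart, and the other tamoxifen libraries were within the vehicle range.

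The ATPase ring unfolds substrates; none of its 6 genes passed, with 2 higher and 4 lower. Psmc1 was at 107, 102, 106 and 95.3 FPKM in vehicle and at 143, 104, 189 and 119 FPKM in tamoxifen tumors. Its tamoxifen replicate 3 stood highest and replicate 2 lay among the vehicle libraries (log2 fold change 0.40, 95% interval -0.02 to 0.81; limma, adjusted p = 0.241). Psmc5 had no estimate in vehicle replicate 3 and tamoxifen replicate 3, where the authors' quantification had failed, so its test used 3 libraries per group. It was at 84.3, 75.04 and 84.5 FPKM in vehicle replicates 1, 2 and 4 and at 58.8, 59.0 and 84.0 FPKM in tamoxifen replicates 1, 2 and 4 (log2 fold change -0.29, 95% interval -0.72 to 0.14; limma, adjusted p = 0.40). Without Psmc5, the ring's levels spanned 2.03-fold, from Psmc2 at 64.0 FPKM to Psmc3 at 130 FPKM.

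None of the 11 genes of the lid and base passed, with 5 higher and 6 lower, and their mean level was 71.6 ± 0.859 FPKM in vehicle and 70.7 ± 8.77 FPKM in tamoxifen tumors (SD, n = 4 each). Psmd6, a lid subunit, had the largest rise, at 67.3, 72.3, 62.2 and 64.1 FPKM in vehicle and 83.3, 67.8, 74.4 and 71.9 FPKM in tamoxifen tumors (log2 fold change 0.16; limma, adjusted p = 0.426). Psmd11, a lid scaffold subunit, had the largest decrease, at 47.2, 45.8, 49.4 and 41.9 FPKM in vehicle and 35.2, 38.6, 35.7 and 44.4 FPKM in tamoxifen tumors (-0.26; limma, adjusted p = 0.224). Tamoxifen replicate 4 of Psmd11 lay within the vehicle range, as did replicates 2 and 4 of Psmd6.

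Psmd7, the partner of the deubiquitinase Psmd14 in the lid, was chosen here after its values were seen, since its groups did not overlap. It was at 86.8, 79.9, 83.8 and 86.9 FPKM in vehicle and at 71.3, 63.2, 79.2 and 74.1 FPKM in tamoxifen tumors. The gap between the groups was narrow, from 79.2 to 79.9 FPKM (log2 fold change -0.23; limma, adjusted p = 0.244). Psmd14 itself, summed over 2 rows, was at 71.2 ± 9.03 FPKM in vehicle and 78.9 ± 6.30 FPKM in tamoxifen tumors (SD, n = 4 each; 0.15; limma, adjusted p = 0.509). The 3 chaperones Psmd5, Psmd9 and Psmd10, which help assemble the base, had log2 fold changes between 0.01 and 0.10, and none passed.

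Tamoxifen replicate 2 stood out in the body of the proteasome. Over the 35 genes with an estimate in every library, leaving out Psme1 and Psme2, tamoxifen replicate 2 was the lowest library for 20 (57.1%, beside 11.3% of all genes tested) and the highest for none. Its median deviation from the gene means was -0.22 on the log2 scale over these genes and -0.03 over all genes tested. Tamoxifen replicate 4 was the lowest for none of the 35 (beside 13.3% of all genes tested) and the highest for 10. Tamoxifen replicate 1 was the highest for 11. It was the lowest for 6 (17.1%), no more than the 19.9% over all genes tested. Among these 6 was Psmd3, a lid subunit, at 40.3 FPKM beside 57.4 to 99.6 FPKM in the other libraries. How often each library was the highest over all genes was not computed, so those counts have no share beside them. Leaving out tamoxifen replicate 2 turned the median of the 38 genes from -0.02 to 0.05 (0.01 over all genes tested), with 23 higher and 15 lower, and leaving out vehicle replicate 2 turned it to 0.01 (0.02 over all genes tested), with 21 higher and 17 lower. Without Psme1 and Psme2, the other 36 genes had 18 changes in each direction, a median of -0.0035 and a range from -0.29 to 0.40.

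**Figure D4:**
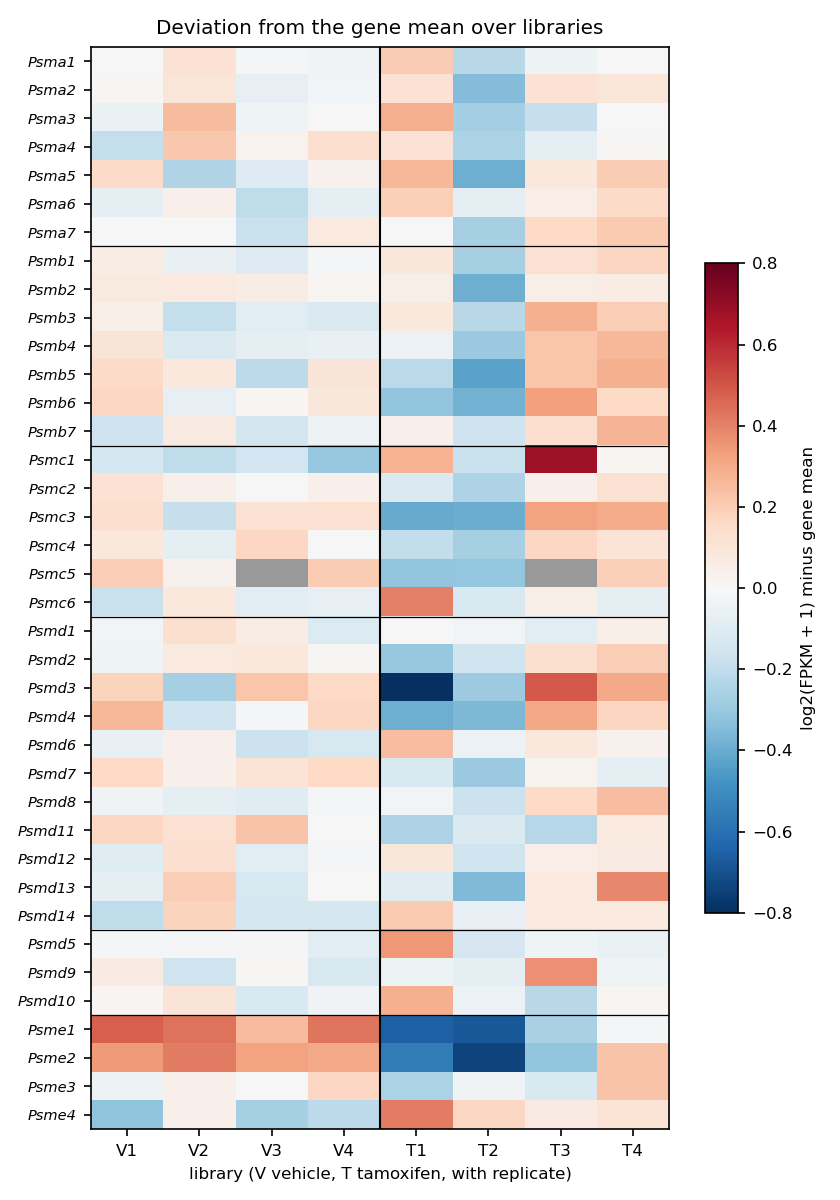
Deviation of log2(FPKM + 1) from each gene's mean over libraries (color) for the 38 genes (rows, grouped by part of the proteasome) in 8 libraries (columns, V vehicle and T tamoxifen with replicate number; gray, no estimate). Psme1 and Psme2 separate the groups, while tamoxifen replicate 2 is the lowest library for 20 of 35 other genes.

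Of the 38 genes, 15 were higher and 23 lower after scaling by the median ratio (median -0.06, beside -0.03 over all genes tested), and 21 were higher and 17 lower after scaling to the same total (median 0.04, beside 0.06 over all genes tested). Each scaling divides a library by a single factor, which shifts all genes nearly alike. Both medians therefore had to move together and keep their order, which is no separate result. For 10 of the 38 genes the table has an overlapping expressed locus, and the other 28 had a median log2 fold change of 0.0022, with none past the threshold. That smaller group leaves out Psme1.

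Genes that build, control or supply the proteasome were read from 3 further lists. Of 17 assembly, inhibitor and associated factors none passed, 10 higher and 7 lower (median 0.02); Pomp, the chaperone that matures the core, was at 205 ± 11.9 FPKM in vehicle and 186 ± 33.1 FPKM in tamoxifen tumors (SD, n = 4 each; log2 fold change -0.15, limma adjusted p = 0.58). Of 10 genes that control proteasome transcription none passed, 6 higher and 4 lower (median 0.02). Among them was Nfe2l1, whose product raises proteasome genes when the proteasome is inhibited, at 123 ± 12.9 and 98.0 ± 22.8 FPKM (SD, n = 4 each; -0.34, limma adjusted p = 0.294).

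Of 12 genes that supply ubiquitin or shuttle tagged proteins none passed, but 10 were lower and 2 higher (median -0.20, beside 0.01 over all genes tested). The groups did not overlap for Uba1, the main ubiquitin-activating enzyme, at 182 ± 8.86 FPKM in vehicle and 141 ± 20.1 FPKM in tamoxifen tumors (SD, n = 4 each; log2 fold change -0.38, limma adjusted p = 0.138). Pomp, Nfe2l1 and Uba1 were named after their values were seen.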

How the data were processed

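Per the submitters' processing notes, reads were processed with STAR 2.3, Cufflinks and Cuffdiff on mm9. The authors deposited FPKM per gene; how libraries were scaled, which annotation was used and whether strand was used is not given in the sources used here. There are no read counts, so precision rests on the 4 libraries per group. The 178 values marked as failed were treated as missing, and rows were summed per symbol. Groups came from the sample titles. Genes with a mean of at least 1 FPKM and 2 estimates per group were tested on log2(FPKM + 1) with limma 3.58.1 in R 4.3.3 (trended eBayes, 2-sided, Benjamini-Hochberg over 15023 genes), checked on simulated data; this pseudocount understates changes of low genes. The 4 ratios had exact permutation tests. Values by library are given for the caps, the cutting subunits, genes past the threshold and the largest rise and decrease per ring; up to 4 genes past the threshold per list are named, and some genes of the lists are counted but not reported here. The genes and lists were chosen with earlier results of these data known. Alternatives were pseudocount, filter, scaling, weights, robust fit, identifier range, replicate block and leaving out each library. Same-numbered libraries of the 2 groups deviated with correlations between -0.156 and 0.145, which gives no sign of pairing by number but cannot exclude it.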

Additional observations from a re-analysis of the deposited data

Results flagged for a closer look

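In 9 of 96 groups of 4 values examined (genes or ratios, by group), 1 library lay far from the other 3, by a gap above Dixon's critical value; chance gives this in about 1 in 20 groups. Among the tamoxifen libraries, the lowest value of Psma2 was 37.5 FPKM (the others 51.2 to 52.1) and that of Psmb2 was 113 FPKM (the others 153 to 155), while the highest of Psmd9 was 13.8 FPKM (the others 9.87 to 10.2). Among the vehicle libraries, the highest value of Psma3 was 67.1 FPKM (the others 54.1 to 56.2) and that of Psmd14 was 84.6 FPKM (the others 64.8 to 67.7). The lowest vehicle values of Psmc3, Psmd3 and Psmd5 were 112, 58.7 and 34.7 FPKM (the others 138 to 140, 78.9 to 82.5 and 36.3 to 36.5). The highest vehicle ratio of Psmb9 over Psmb6 was 3.12 (the others 2.84 to 2.87).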

How the results depend on the processing

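The count of proteasome genes past the threshold was 1, and it became 0 with no filter, with scaling to the same total and with the replicate block, 2 with array quality weights, and 0 to 2 when 1 library was left out. Over all genes tested, 819 passed; 534 did with a filter of 5 FPKM, 228 with scaling to the same total, 252 with the replicate block, and 268 to 856 with 1 library left out. The summed FPKM was 1661946 in vehicle replicate 1 and between 899412 and 1307733 in the other libraries. Scaling to the same total therefore changed vehicle replicate 1 by a large factor. With scaling by the median ratio Psme1 passed (limma, adjusted p = 0.0368). The log2 fold change of Psmb5 ran from -0.18 to 0.06 and that of Psmb6 from -0.23 to 0.01 when 1 library was left out, turning positive without tamoxifen replicate 2. The ratio of Psmb10 over Psmb7 kept its direction (-1.40 to -1.03), but its adjusted exact p was 0.0571 without vehicle replicate 1, 3 or 4. Of 396 values of 22 named genes under 18 alternatives, 358 kept direction and side of the threshold, 31 lost the call, 5 gained it and 2 turned; of 49 values of the ratios, 46 kept both. The causes were not tested. The correlations of same-numbered libraries gave no sign of pairing but cannot exclude it. Under the block the log2 fold change of Psme1 stayed at -0.80, with an adjusted p of 0.084 (limma). Why calls were lost under the block was not tested.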
